A study of Homo sapiens with 12 samples.

Results

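The ZNF genes are the human genes whose symbol is ZNF followed by a number, most of which encode proteins with zinc fingers. They were followed here through ribosome profiling (Ribo-seq) of HCT116, an established line of human colorectal cancer cells, after 24 h with 100 nM trametinib or with the solvent DMSO. Trametinib inhibits the kinases MEK1/2, which activate ERK in the Ras-MAPK pathway. A gene was a member when its symbol was ZNF with digits, with or without letters after them, and when it had at least 20 raw counts in each of the 6 input libraries. This rule gave 133 members of 474 ZNF genes in a table of 15798 genes, while the other 341 ZNF genes had fewer counts in at least 1 input library. Each treatment had 3 libraries of input RNA and 3 of footprints, 12 in all. Input was RNA of the cytoplasmic lysate after removal of ribosomal RNA and random fragmentation, and footprints were the mRNA pieces that ribosomes protected against RNase I. All dishes held the same unmodified cell line, received cycloheximide shortly before lysis to hold ribosomes in place, and differed by treatment alone, so that the results describe 1 cell line, 1 dose and 1 time. The labels do not say whether replicates came from separate experiments, so p-values measure the spread between these libraries.

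A classical zinc finger is a short fold in which a pair of cysteines and a pair of histidines hold a zinc ion. Fingers follow each other in tandem, and each contacts a few bases of DNA, so that long arrays recognise long sites. Many ZNF proteins carry a KRAB domain in front of the fingers, which recruits TRIM28 (KAP1) and through it the histone methyltransferase SETDB1 and heterochromatin proteins. KRAB zinc finger proteins are best known for silencing transposable elements, and their genes lie largely in clusters that arose by duplication, above all on chromosome 19. Other ZNF proteins activate promoters, bind RNA, or act in ribosome assembly, splicing and mitosis.

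The repeats bear on the counting, because the authors kept only reads that fell into reading frames of a single gene symbol. The fingers below, taken from GRCh38 with the Gencode 44 reading frames, are shown because they span the range from fully countable to mostly shared, and because they show how far the base composition of the members differs. Each is written 5′ to 3′ on the coding strand, with the codons of the 2 cysteines and 2 histidines in capitals.
ZNF143 finger 4 (chr11:9501108-9501197, plus strand): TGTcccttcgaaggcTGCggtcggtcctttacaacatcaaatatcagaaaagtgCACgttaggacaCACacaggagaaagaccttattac
ZNF358 finger 1 (chr19:7519699-7519782, plus strand): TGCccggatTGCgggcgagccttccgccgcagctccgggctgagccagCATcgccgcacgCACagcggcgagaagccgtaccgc
ZNF358 finger 5 (chr19:7520035-7520118, plus strand): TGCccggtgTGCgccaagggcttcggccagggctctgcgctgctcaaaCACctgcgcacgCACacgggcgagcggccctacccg
ZNF680 finger 1 (chr7:64522121-64522204, minus strand): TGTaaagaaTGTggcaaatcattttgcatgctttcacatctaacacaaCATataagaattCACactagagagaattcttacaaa
ZNF680 finger 6 (chr7:64521701-64521784, minus strand): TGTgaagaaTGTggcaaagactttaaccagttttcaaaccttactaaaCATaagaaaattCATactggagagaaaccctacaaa
ZNF91 finger 2 (chr19:23362094-23362177, minus strand): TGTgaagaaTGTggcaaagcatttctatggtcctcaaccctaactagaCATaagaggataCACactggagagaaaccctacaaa
ZNF91 finger 24 (chr19:23360078-23360161, minus strand): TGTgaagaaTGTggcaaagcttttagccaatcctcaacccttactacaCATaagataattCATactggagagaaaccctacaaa
In ZNF143 finger 4 all 61 stretches of 30 bases, about the length of a footprint, occurred under no other symbol. In ZNF680 finger 6 this held for 33 of 55 stretches, and in ZNF91 finger 24 for 12 of 55, with a stretch that occurred under up to 32 symbols including its own. A read from such a stretch was not counted for any gene, in input and footprints alike.

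All 133 members matched a Gencode 44 reading frame, and 128 of them held at least 1 finger by a search for the spacing of the cysteines and histidines. The median member had 9 fingers in 660 residues, and the most were 36 fingers in ZNF142. The 5 members without this spacing were ZNF185, ZNF330, ZNF503, ZNF839 and ZNF862, which bear the symbol without the classical array. The core of the KRAB domain was found by a sequence pattern in 41 members and that of the SCAN domain, a domain through which such proteins pair, in 9. On chromosome 19 lay 33 members, or 24.8% against 6.11% of the other genes with the same input counts. Despite the repeats, the median member had 99.8% of its 30-base stretches under its own symbol alone. The share was under 90% in 12 members, and the values of these 12, which include ZNF91, ZNF224, ZNF562, ZNF680, ZNF721 and the least distinct, ZNF263 with 52.2%, rest on part of their sequence and are uncertain to that extent.

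Counts inside reading frames summed to between 2276693 and 2845568 per input library and to between 10127477 and 19181588 per footprint library. The treatment labels were checked on ERK output genes, of which 10 of 10, among them DUSP6 and SPRY4, fell in both assays under trametinib. All 7 epithelial markers, such as EPCAM and KRT8, passed the input floor. Of 6 measured markers of other cell types, 4 had at most 3 counts in any library. The collagen gene COL1A1 was present in both treatments, and COL3A1 rose from means of 0.720 to 82.3 normalized input counts under trametinib. Whether the collagen change has a part in the results on ZNF genes was not tested. DMSO replicate 1 stood apart from the other DMSO libraries in both assays, and counts are given without it beside the comparisons that use it. The members took between 0.393% and 0.464% of input counts and between 0.305% and 0.364% of footprint counts.

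Levels are compared between genes per 1000 coding bases, from the normalized counts of the authors, in which each library is scaled to the typical gene. The median member had 67.5 normalized input counts per 1000 coding bases in DMSO, with the middle range of members from 42.1 to 114, against 191 for 8057 other genes with the same floor and a Gencode 44 reading frame. In lysates of many cells, less mRNA per cell and fewer cells with the mRNA cannot be told apart. In DMSO footprints the medians were 45.6 and 194. The ZNF genes were thus scarce as mRNA and scarcer still as footprints. The most abundant member per length in DMSO input was ZNF706, a gene for a very short protein with a single finger, with 485 ± 73.4 (SD, n = 3). By total normalized count the leading members in input were ZNF638, ZNF518A, ZNF644, ZNF292 and ZNF518B, all with long reading frames. ZNF638, which takes part in silencing of unintegrated retroviral DNA, had 170 ± 48.7 input counts per 1000 coding bases in DMSO and ZNF644, a partner of the histone methyltransferases G9a and GLP, had 172 ± 46.6. The members were chosen by their input counts, so these levels follow from the rule and are a description.

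The first comparison asked how densely ribosomes occupied ZNF mRNAs in untreated cells. Footprints relative to input, called ribosome density here, were lower than that of the typical gene for 61 of 133 members and higher for 16, while 56 did not pass (edgeR quasi-likelihood test, adjusted p under 0.05 over all 10663 genes tested). Among the 8240 genes with the same input floor, 31.7% were lower and 34.3% were higher, against 45.9% and 12.0% of the members. The median log2 density of the members was -0.44, or 0.738 of the typical gene, and that of the other 8107 genes was 0.05. The estimate lay below 0 for 94 members. Members varied widely, from -2.62 to 2.38, so that low density was frequent in the family but not general. Without DMSO replicate 1 of input 56 members were lower and 15 higher, and without DMSO replicate 1 of footprints 64 were lower and 13 higher. Scaling by library totals shifted all genes by -0.16 and gave 72 lower and 11 higher members, at the same distance of -0.49 from other genes. The histogram of ribosome density shows the spread and the shift.

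**Figure D1:**
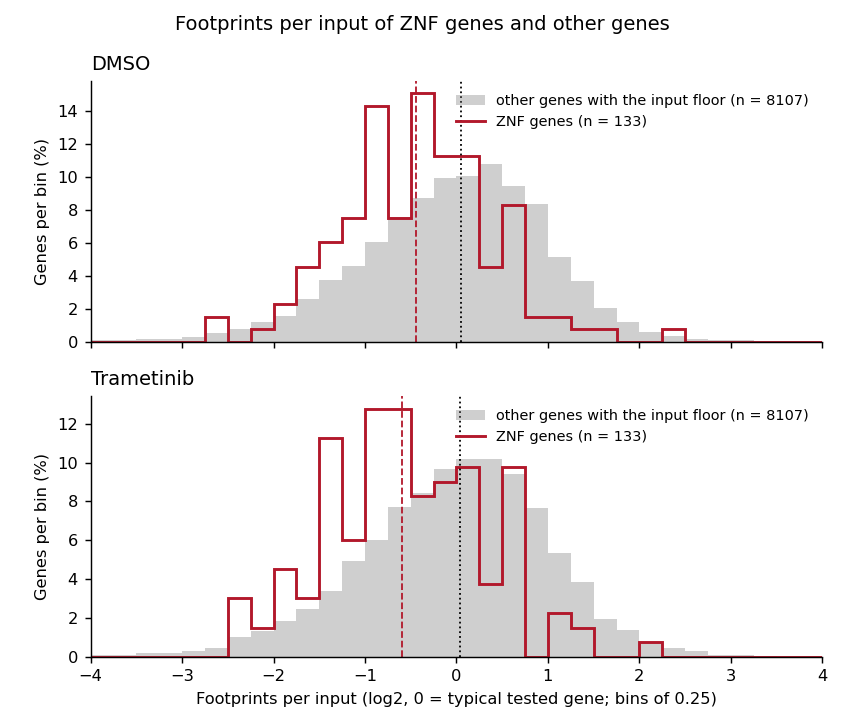
Share of genes (%) per bin of log2 footprints per input in DMSO (top) and trametinib (bottom), for the 133 ZNF genes (red line) and 8107 other genes with at least 20 counts in each input library (grey). The dashed red and dotted black lines are the medians, -0.44 and 0.05 in DMSO and -0.60 and 0.04 under trametinib, and the ZNF genes lie to the left in both.

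The 5 members with the lowest density in DMSO were ZNF358, ZNF532, ZNF839, ZNF236 and ZNF45. ZNF358 (chr19:7515292-7521025, plus strand, GRCh38), the gene of the 2 GC-rich fingers above, had 104, 102 and 129 normalized counts in the DMSO input libraries and 19.5, 24.1 and 12.2 in the footprint libraries of the same numbers. Every footprint library was thus far below every input library. The density estimate was -2.62 (SE 0.28, edgeR adjusted p = 2.14e-06). ZNF532 belongs with ZNF592 and ZNF687 to a zinc finger complex with the chromatin reader ZMYND8. Its DMSO input libraries held 211, 149 and 152 normalized counts and its footprint libraries 27.3, 36.5 and 23.6, with an estimate of -2.58 (SE 0.21, edgeR adjusted p = 2.06e-07). For libraries of the same number, taken as 1 dish, the footprint to input ratio of ZNF839, a member without classical fingers, was 0.224, 0.226 and 0.225 in DMSO. ZNF236, with 30 fingers, had ratios of 0.252, 0.220 and 0.291, and ZNF45, a KRAB gene of chromosome 19, had 0.252, 0.240 and 0.382. All of these ratios lay well below 1, the value of a typical gene.

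At the other end were ZNF706, ZNF280C, ZNF330, ZNF622 and ZNF143. ZNF706 had 129, 97.2 and 105 normalized counts in DMSO input and 662, 503 and 578 in DMSO footprints, which gave ratios of 5.10, 5.15 and 5.46. Its estimate of 2.38 (SE 0.15, edgeR adjusted p = 1.89e-08) was the highest of all members. ZNF330, a nucleolar protein without classical fingers, had ratios of 3.08, 2.23 and 2.75. ZNF622, which takes part in the last steps of assembly of the large ribosomal subunit, had 2.64, 1.81 and 2.42. ZNF143, an activator of promoters including those of small nuclear RNAs and the gene of the fully countable finger above, had 1.70, 2.07 and 3.12. For all of these, each DMSO dish had more footprints than input, relative to the typical gene. ZNF280C reached 3.13, 2.02 and 4.64, with an estimate of 1.55 (SE 0.22, edgeR adjusted p = 3.76e-05), and had the widest spread of the 5.

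Low density was found within bands of other gene properties as well, as the plot of medians by band shows. Where fewest codons ended in G or C, from 27.3% to 40.7%, the median log2 density in DMSO was -0.11 for 44 members and 0.32 for 1659 other genes. In the most GC-rich band, from 59.2% to 92.9%, it was -0.79 for 45 members and -0.19 for 3829 other genes. Medians were thus lower in the GC-rich band in members and other genes alike, and the members lay below the other genes in each band. Proteins of 76 to 568 residues had medians of -0.25 in members and 0.35 in other genes, whereas proteins of 799 to 2723 residues had -0.70 and -0.46. The distance between members and other genes was therefore smaller among long proteins. In the band of weakest input, 56.4 to 105 normalized counts, which lies nearest to the floor of the rule, the medians were -0.44 and -0.00. In the strongest input band they were -0.49 and 0.06. Across the 133 genes, which share libraries and are not independent, density in DMSO correlated with GC content with Pearson's r of -0.29 and with protein length with -0.29, a description of weak relations. Whether GC content or length has a part in the low density was not tested.

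**Figure D2:**
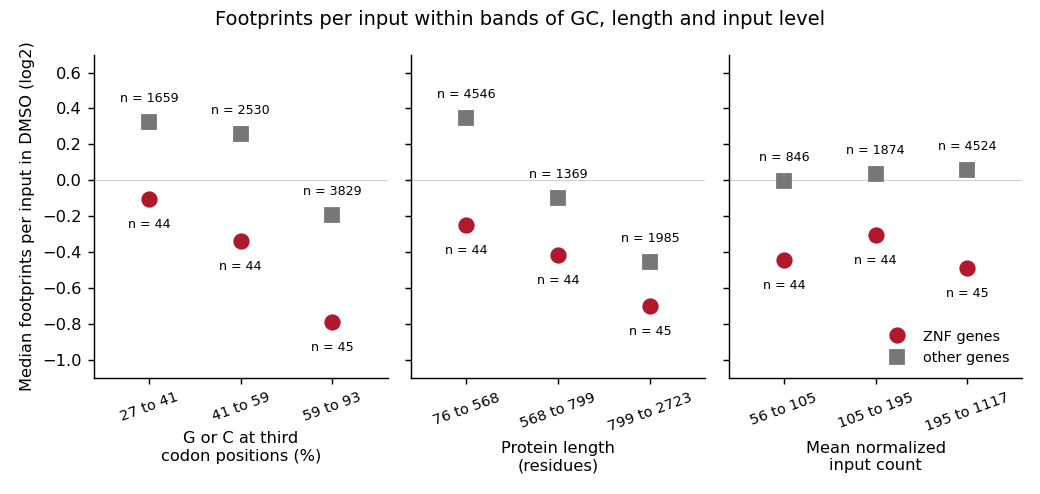
Median log2 footprints per input in DMSO of ZNF genes (red circles) and other genes with the same input floor (grey squares) in bands of G or C at the third codon positions, protein length and mean normalized input. The number of genes stands beside each point, and the ZNF genes lie below the other genes in all 9 bands.

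By domain structure, the median log2 density in DMSO was -0.10 for 26 members with 1 to 4 fingers, -0.49 for 43 with 5 to 9, -0.56 for 31 with 10 to 14 and -0.29 for 28 with 15 or more. It was -0.34 for the 41 members with the KRAB pattern and -0.45 for the 92 without it. On chromosome 19 the median was -0.34 for 33 members, and on other chromosomes it was -0.46 for 100. The 121 members with at least 90% distinct sequence had a median of -0.45, so that the low density was present without the uncertain members, whose median was -0.33. Genes with other symbols of finger families had like values. The 26 genes with a ZBTB symbol, in most of which the fingers follow a BTB domain, had a median of -0.57 with 17 lower and 3 higher. Of the 3 higher, ZBTB8OS (0.49) was taken in by its symbol and is not a gene of this structure. The 15 ZFP, ZKSCAN and ZSCAN genes had -0.51 with 8 lower and 1 higher. Among all genes with the floor 31.7% were lower and 34.3% higher.

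The same density under trametinib contrasted other libraries, and asked whether the order of ZNF mRNAs was kept. Both densities came from 1 model of all 12 libraries and share its estimate of the spread. Under trametinib density was lower for 73 members and higher for 17, or 54.9% and 12.8%, against 32.6% and 34.1% of the genes with the same input floor. Of the 61 members that were lower in DMSO and the 73 under trametinib, 57 were lower in both. Of the 16 and 17 that were higher, 15 were higher in both, and 0 members passed in opposite directions. The median log2 density was -0.60, or 0.662 of the typical gene, and 0.04 for other genes. Across the 133 members the values in DMSO and under trametinib correlated with Pearson's r of 0.92, and with 0.95 across the other genes. ZNF706 kept the highest density with ratios of 4.55, 4.63 and 4.10 in the trametinib dishes, while ZNF358 had 0.248, 0.252 and 0.113.

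**Figure D3:**
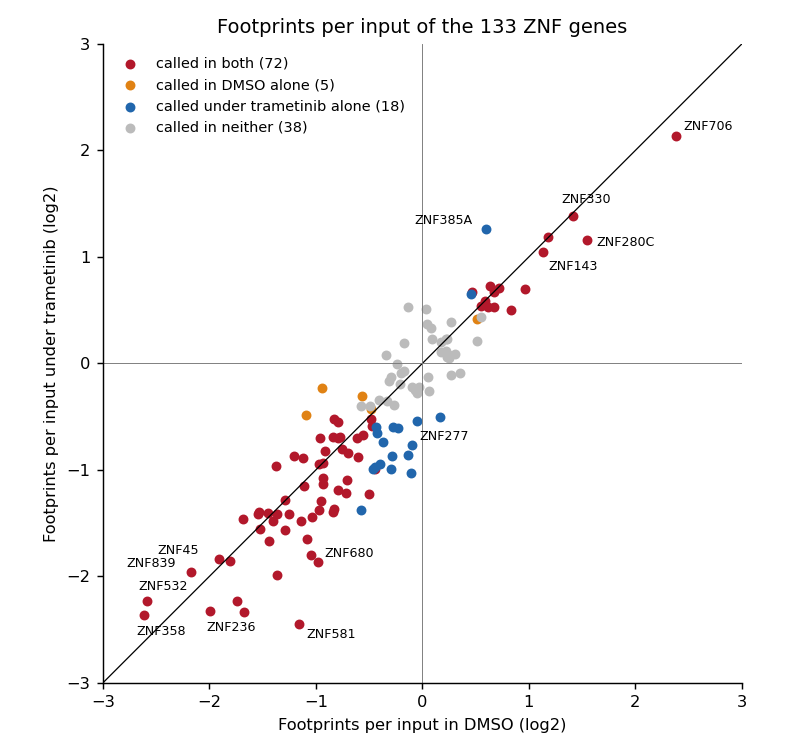
Log2 footprints per input of each of the 133 ZNF genes in DMSO (horizontal) and under trametinib (vertical), with equal values on the diagonal and genes coloured by whether edgeR called them in either treatment. The genes follow the diagonal from ZNF358 at -2.62 to ZNF706 at 2.38, and ZNF581 lies furthest below it.

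Taken per dish, the median log2 ratio of the members minus that of the other genes was -0.38, -0.47 and -0.53 in DMSO replicates 1, 2 and 3 and -0.63, -0.62 and -0.58 under trametinib. The trametinib dishes all lay below the DMSO dishes, and DMSO replicate 1, whose libraries stood apart, lay nearest to 0. The means were -0.46 ± 0.08 and -0.61 ± 0.03 (SD, n = 3 dishes). This is a score over chosen members and carries no test.

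The second comparison asked which ZNF mRNAs gained or lost ribosome footprints, relative to the typical gene, when MEK was inhibited. The authors reported that this treatment lowered the share of translating ribosomes in HCT116 cells, as estimated by polysome profiling. Counts scaled within an assay do not show a loss shared by all genes, so a rise here need not be an absolute gain. Footprints, which the rule did not use, were higher for 19 members and lower for 20 of 133, with 94 not past the threshold. Among genes with the same input floor, 23.1% were higher and 25.0% were lower, against 14.3% and 15.0% of the members. The changes were also small: 2 members, ZNF827 and ZNF326, passed with an at least 2-fold change, against 12.1% of other genes. The median normalized footprint count of a library lay between 99.0 and 112 in members and between 285 and 294 in other genes. Whether these lower counts have a part in the smaller shares of calls was not tested. The median change was -0.04 in members and -0.01 in other genes on the log2 scale. The balance of rises and falls depends on the scaling, because library totals shifted all genes by 0.17 and gave 36 higher and 10 lower members. With the replicate number as a block, 20 were higher and 20 lower, and 36 of the 39 calls were kept. The calls of ZNF207, ZNF227 and ZNF512B were lost (edgeR adjusted p-values of 0.0551, 0.0690 and 0.0593), and 4 were gained (ZNF618, ZNF687, ZNF689, ZNF787). Without footprint replicate 1 of DMSO there were 30 higher and 23 lower, and without trametinib replicate 1 or 2 there were 11 lower in either case. In 31 members (23.3%) all trametinib footprint libraries were above all DMSO libraries and in 32 (24.1%) all were below, against 28.7% and 30.1% of genes with the floor.

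ZNF827, which recruits the NuRD chromatin remodelling complex to DNA, had the strongest rise. ZNF827 (chr4:145757627-145938823, minus strand) had 117, 59.9 and 63.8 normalized footprint counts in DMSO and 151, 184 and 171 under trametinib, so that the groups did not overlap. The footprint change was 1.06 (SE 0.25, edgeR adjusted p = 0.00670). Its input moved alike, from 211, 79.9 and 171 to 332, 250 and 378. DMSO replicate 2 was the lowest library in both assays and replicate 1 the highest.

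ZNF503, a developmental repressor without classical fingers, had 152, 221 and 219 footprint counts in DMSO and 413, 415 and 331 under trametinib. The change was 0.98 (SE 0.17, edgeR adjusted p = 0.00147), and no trametinib library reached down to the DMSO range. ZNF385A, a protein that binds RNA and is induced by p53, rose in footprints from 111, 152 and 163 to 236, 320 and 273 (change 0.97, SE 0.18, edgeR adjusted p = 0.00213). Its input libraries, in contrast, overlapped between treatments, with 56.1, 106 and 117 against 89.0, 66.9 and 188. The related gene ZNF385B had 30.9, 35.8 and 35.8 in DMSO footprints and 53.8, 49.7 and 54.2 under trametinib, a change of 0.63 (SE 0.15, edgeR adjusted p = 0.00812), while its input estimate was -0.08. ZNF385A and ZNF385B lie above the diagonal in the plot of input against footprints.

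The rise of ZNF358, from 19.5, 24.1 and 12.2 to 39.6, 43.1 and 24.3, was estimated at 0.99 (SE 0.30, edgeR adjusted p = 0.0225). The highest DMSO library and the lowest trametinib library nearly met, and the call was lost without DMSO replicate 3 or trametinib replicate 1 or 2, with adjusted p-values of 0.0645, 0.0760 and 0.0885. Among KRAB genes, ZNF436 rose from 102, 76.9 and 86.6 to 159, 159 and 164 footprint counts, a change of 0.86 (SE 0.14, edgeR adjusted p = 0.00108). The chromosome 19 genes ZNF226 and ZNF224, the latter a repressor of the aldolase A gene, had footprint changes of 0.76 and 0.70. The other called rises named by rank were those of ZNF652, a transcriptional repressor, with 0.77 and of ZNF185, an actin-associated LIM domain protein, with 0.70. The remaining 9 rises lay between 0.39 and 0.59 and included ZNF148, a factor of GC-rich promoters.

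The strongest fall was that of ZNF326, a component of the DBIRD complex that links transcript elongation to splicing. ZNF326 (chr1:89995110-90035533, plus strand) had 273, 235 and 319 footprint counts in DMSO and 121, 136 and 147 under trametinib. The change was -1.03 (SE 0.15, edgeR adjusted p = 5.40e-04), and input fell from 196, 169 and 183 to 86.6, 95.2 and 84.8. Both assays separated the treatments completely, and the ratio of footprints to input stayed at 1.39, 1.39 and 1.75 in DMSO and 1.39, 1.43 and 1.73 under trametinib.

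ZNF330 fell in footprints from 773, 633 and 697 to 434, 373 and 427 (change -0.77, SE 0.12, edgeR adjusted p = 8.10e-04) and in input from 250, 283 and 253 to 142, 180 and 147. ZNF142, the member with the most fingers, fell from 144, 123 and 124 to 78.6, 64.1 and 75.2 in footprints (change -0.84, SE 0.14, edgeR adjusted p = 0.00144). For both genes all trametinib libraries lay below all DMSO libraries in either assay. ZNF473, a subunit of the machinery that processes histone pre-mRNAs, had 73.7, 73.6 and 54.2 footprint counts in DMSO and 31.3, 39.4 and 40.9 under trametinib, with a change of -0.85 (SE 0.19, edgeR adjusted p = 0.00554). ZNF280C, among the densest ZNF mRNAs in DMSO, fell by 0.83 on the log2 scale.

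Of the 20 members called lower in footprints, 3 were called lower in input as well. ZNF680, the KRAB gene whose fingers are printed above, and ZNF721 were, like most of the 20, not called in input. ZNF680 had 34.3, 31.9 and 38 footprint counts in DMSO and 22.4, 18.9 and 15.2 under trametinib (change -0.87, SE 0.20, edgeR adjusted p = 0.00595). Its input was 64.7, 77.8 and 63.2 in DMSO and 86.6, 66.9 and 54.0 under trametinib, and these libraries overlapped. ZNF721 had 187, 139 and 149 footprint counts against 82.9, 78.5 and 108 (change -0.83, SE 0.17, edgeR adjusted p = 0.00411). Both genes are among the 12 with much shared sequence, with 75.8% and 83.5% of stretches distinct. The falls of ZNF562, ZNF184 and ZNF48 were -0.75, -0.71 and -0.65. The call of ZNF562 (edgeR adjusted p = 0.0320) was lost without trametinib replicate 1 or 2, at adjusted p-values of 0.100 and 0.114, and with library totals, at 0.0748. The other 10 falls lay between -0.62 and -0.33 and included ZNF593 and ZNF207.

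**Figure D4:**
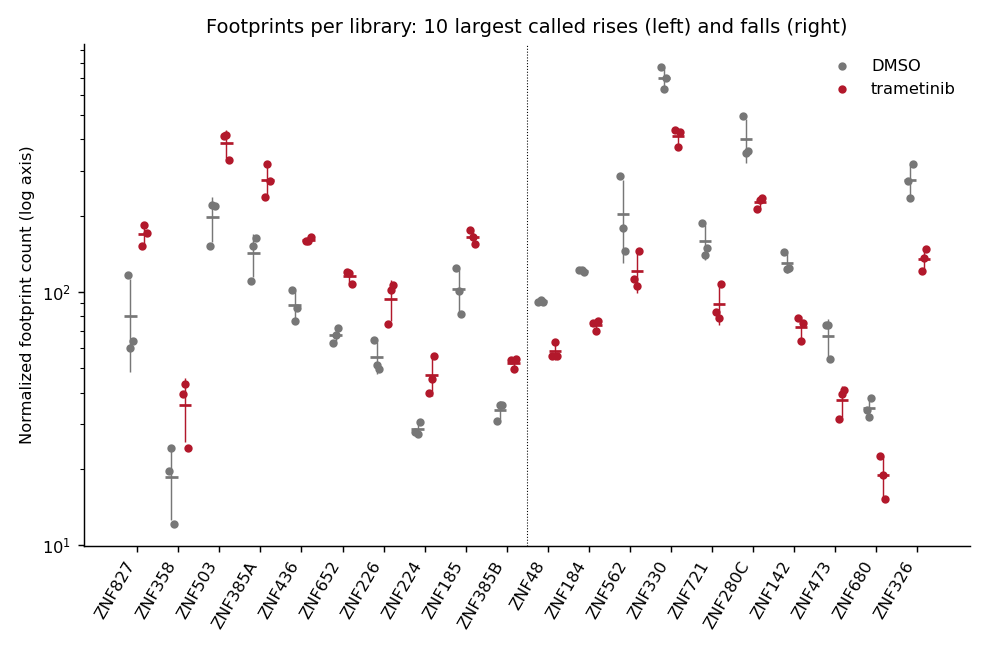
Normalized footprint count of each library (points, log axis) with mean (bar) and SD (line) of 3 DMSO (grey) and 3 trametinib (red) libraries, for the 10 ZNF genes with the largest called rise and the 10 with the largest called fall. The steepest changes, ZNF827 at 1.06 and ZNF326 at -1.03 on the log2 scale, stand at the outer ends, and the groups of ZNF562 nearly touch.

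Input is given as a description, since the rule set a floor on it in both treatments. It was higher for 15 members (11.3%) and lower for 5 (3.76%), against 14.5% and 16.5% of the genes with the floor. The median change was 0.08 in members and -0.01 in other genes. All trametinib input libraries lay above all DMSO libraries for 30 members (22.6%) and below for 13 (9.77%), against 22.7% and 23.4% of genes with the floor. Leaving out single input libraries moved these counts, to 7 higher without DMSO replicate 2 or trametinib replicate 1 or 3, to 5 higher and 2 lower without trametinib replicate 2, and to 9 lower without DMSO replicate 3. Without DMSO replicate 1 there were 16 higher and 4 lower. The strongest rises were those of ZNF581, ZNF503 and ZNF827, with 1.21, 1.14 and 1.06, and the strongest falls those of ZNF326, ZNF142 and ZNF330, with -1.03, -0.80 and -0.74. The input call was lost without 1 library for ZNF503 (DMSO replicate 2 or trametinib replicate 3, adjusted p-values of 0.0842 and 0.0681), ZNF142 (trametinib replicate 2, 0.0629) and ZNF827 (trametinib replicate 3, 0.0633). In 98 members input and footprints had estimates of the same sign, or 73.7% against 83.4% of other genes. Of the 39 members with a called footprint change, 36 had an input estimate of the same sign, 7 were called higher and 3 lower in both, and 0 were called in opposite directions. Across the 133 members, input and footprint changes correlated with Pearson's r of 0.68, against 0.90 across other genes, whose changes spread more widely.

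**Figure D5:**
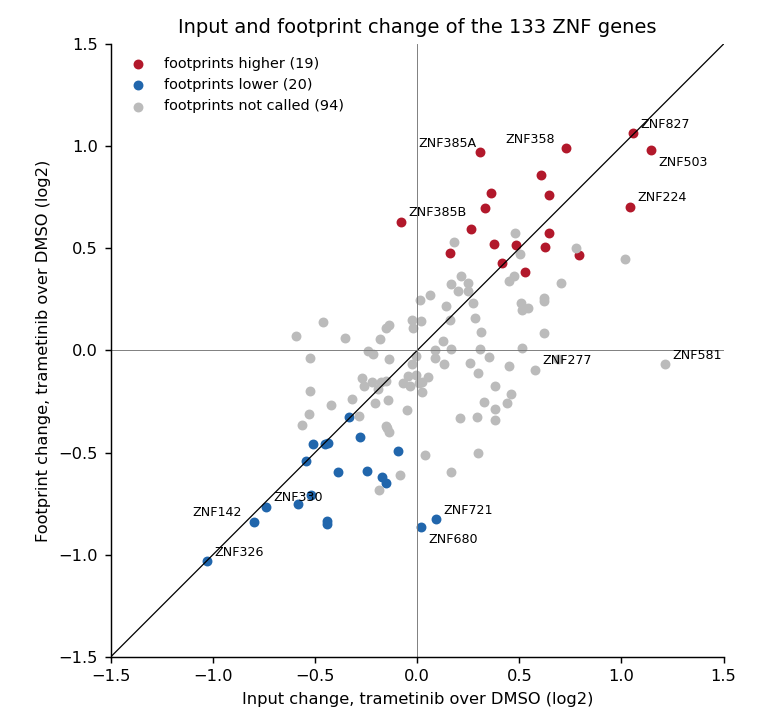
Log2 change of input (horizontal) and of footprints (vertical), trametinib over DMSO, for the 133 ZNF genes, with equal changes on the diagonal and genes coloured by the edgeR call in footprints (19 higher, 20 lower). ZNF326, ZNF142, ZNF330 and ZNF827 lie close to the diagonal, whereas ZNF581 at 1.21 in input lies near 0 in footprints.

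The third comparison asked whether ribosome density itself changed under trametinib, by the interaction of assay and treatment in all 12 libraries. It was higher for 0 and lower for 0 of 133 members by edgeR, and 13 had an unadjusted p-value under 0.05. Among the genes with the same floor, 0.0364% were higher and 1.24% were lower, so that calls were rare among all genes as well. DESeq2 with a likelihood ratio test called 2 members lower, ZNF277 and ZNF581, and limma-trend called 0. With a term for each dish, which takes equal numbers as 1 dish, edgeR called 1 member lower, ZNF581. Without DMSO replicate 1 of either assay edgeR called 0 as well. The median change was -0.09 in members and 0.01 in other genes, and it turned to 0.09 with library totals, which moved all genes by 0.18. Its distance from the other genes was between -0.10 and -0.09 under these scalings and with TMM. The median SE of a member was 0.27, which limits this comparison to changes well above that size. The dish ratio under trametinib was below all DMSO dishes for 13 members (9.77%) and above for 4 (3.01%), against 9.27% and 8.70% of genes with the floor.

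ZNF581, a short protein with 4 fingers, had the largest estimate. Its input libraries held 90.6, 43.2 and 103 normalized counts in DMSO and 164, 190 and 193 under trametinib, while footprints were 39.0, 35.2 and 31.7 against 32.6, 34.5 and 33.8. Input thus rose without overlap and footprints stayed within the DMSO range, and the dish ratios went from 0.434, 0.816 and 0.311 to 0.201, 0.183 and 0.177. The density change was -1.28 (SE 0.33, edgeR adjusted p = 0.115). It passed with DESeq2 (adjusted p = 0.0102), with a term for each dish (edgeR adjusted p = 0.0486) and without DMSO input replicate 3 (edgeR adjusted p = 0.0437), and over all 21 models its adjusted p-value reached 0.328. ZNF581 has its smallest input count, 20, right at the floor of the rule.

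ZNF277, which binds the ribosomal protein uS5, had 293, 261 and 222 input counts in DMSO and 385, 399 and 373 under trametinib, against 255, 237 and 241 and then 235, 204 and 245 in footprints. Input rose without overlap while footprints overlapped. The density change was -0.67 (SE 0.18, edgeR adjusted p = 0.146), passed by DESeq2 alone (adjusted p = 0.0362) and ranged up to an adjusted p-value of 0.449 over 21 models. ZNF680 and ZNF721 had estimates of -0.89 and -0.92 and ZNF385B had 0.71, none past the threshold.

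Members with known roles were also described by function. The lists were chosen with earlier results of these data known, so the values of the lists are a description. The list of ZNF genes that act in RNA metabolism, ribosomes or mitosis held 11 members, with a median log2 density of 0.59 in DMSO. Among them 6 were higher and 1 was lower, against 34.3% and 31.7% of genes with the floor. The lower gene was ZNF598, the ubiquitin ligase that senses collided ribosomes, with ratios of 0.302, 0.349 and 0.297 in DMSO. In footprints 0 of these 11 rose under trametinib and 4 fell, against 23.1% and 25.0% of genes with the floor: ZNF326, ZNF330, ZNF593, a ribosome biogenesis factor, and ZNF207, a kinetochore protein that binds BUB3. The call of ZNF207 (change -0.33, edgeR adjusted p = 0.0375) was lost with the replicate block (adjusted p = 0.0551). The list of ZNF transcription factors held 15 members with a median log2 density of -0.91 in DMSO. Of these 3 were higher (ZNF143, ZNF217, ZNF24) and 9 lower, against the same 34.3% and 31.7%. Among the 9 were ZNF91, a repressor of SVA retrotransposons, with ratios of 0.248, 0.410 and 0.347, and ZNF274, which brings SETDB1 to ZNF gene clusters, with 0.496, 0.511 and 0.470. In footprints 2 of the 15, ZNF148 and ZNF292, rose and 1, ZNF24, fell, against the same 23.1% and 25.0%.

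The machinery that KRAB proteins recruit was measured in 20 genes, which are not members. In footprints 5 rose and 4 fell under trametinib, in input 3 rose and 3 fell, and ribosome density changed for 0. The background among genes with the input floor was 23.1% higher and 25.0% lower in footprints and 14.5% and 16.5% in input, so that these shares of 20 genes lay near it. TRIM28 had means of 5619 and 4126 normalized footprint counts in DMSO and trametinib, a change of -0.44 (edgeR adjusted p = 0.0340), while its input was 6292 and 6024. Of the NuRD subunits in the list, CHD3, MTA1 and HDAC1 rose in footprints by 0.66, 0.53 and 0.38 on the log2 scale. The others, CHD4, HDAC2 and MTA2, had changes of -0.20, -0.04 and 0.08 and were not called. RESF1, a partner of SETDB1, fell by 1.02 on the log2 scale. For the 19 of these genes with the input floor the median log2 density in DMSO was 0.83, with 12 higher and 5 lower. Among all genes with the floor 34.3% were higher and 31.7% lower, and the median of the ZNF members was -0.44.

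The threshold of the rule was a count of 20 in the weakest input library. The members nearest to it were ZNF581 and ZNF805 with a smallest input count of 20 and ZNF180 with 21, and the ZNF genes just outside were ZNF202, ZNF33B and ZNF440 with 19 each. ZNF202 had 76, 49 and 54 raw counts in DMSO input and 19, 24 and 27 under trametinib, so that the floor left out a gene whose input was lower in every trametinib library. In footprints the smallest count of any member was 20, for ZNF689.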

How the data were processed

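Ribosome profiling was deposited as 2 tables of reading frame values for 12 libraries, 3 per treatment and assay. The authors removed adapters with the FASTX-toolkit, discarded rRNA and tRNA reads with Bowtie 1.2.2, mapped the rest to the basic set of Gencode 38 and deposited a raw count per gene symbol of reads of 25 to 35 bases that fell into reading frames of a single symbol. The authors also deposited a normalized signal per gene and library, which was found to equal the raw value times a constant in all 12 libraries. The deposited columns of the authors' own DESeq2 comparisons (fold changes and p-values) were not used, and 0 columns of per-sample values were left unmapped.

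Here edgeR 4.0.16 quasi-likelihood tests (R 4.3.3, relative log expression size factors) were fitted to the raw counts of the 10663 genes that reached 10 counts in 3 or more input libraries, and p-values were adjusted over these genes by the Benjamini-Hochberg method with a threshold of 0.05. Footprint and input changes used 6 libraries each. Ribosome density in either treatment and its change, the assay by treatment interaction, were contrasts in 1 model of all 12 libraries with a shared estimate of the spread. The fits were first tested on simulated data. Because sizes are relative within an assay, a density of 0 on the log2 scale is that of the typical gene. Ratios per dish used normalized values plus 0.5 and took libraries of equal number as 1 dish, which the labels do not state. Alternatives were DESeq2 1.42.0 (likelihood ratio test), limma 3.58.1 (trend, prior count 2), TMM, library totals, other filters and floors, replicate blocks and leaving out each library.

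Whether equal numbers pair libraries was checked by the correlation of deviations from group means over 8625 genes. Between treatments it was 0.10, 0.12 and 0.28 in footprints and 0.07, 0.06 and 0.31 in input. Between input and footprints it was 0.80, 0.18 and 0.34 in DMSO and 0.14, 0.07 and -0.11 under trametinib. The values between treatments were alike in both assays, and libraries of unequal number were not compared. They therefore do not decide whether the treatments are paired by number. The main fit has no block, and the blocked calls in footprints are given beside it. Fingers and domains were searched in Gencode 44 reading frames (GRCh38), a later release than that of the authors.

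The text names the 10 largest called rises and falls in footprints, the 5 highest and lowest densities in DMSO, the 3 largest input rises and falls, the 5 highest inputs, the genes at the floor and genes of the role lists. ZNF581, ZNF277, ZNF385B, ZNF680 and ZNF721 were named for density change, and the genes whose calls the block moved were named, after their values were seen. The members and lists were chosen with earlier results of these data known. Counting error rests on totals of 2276693 to 2845568 counts in input and 10127477 to 19181588 in footprints, so that input limits the precision of densities.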

Additional observations from a re-analysis of the deposited data

How the results depend on the processing

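With any 1 library left out, 56 to 64 members were lower and 13 to 18 higher in DMSO, and 65 to 74 were lower and 13 to 20 higher under trametinib. Footprint changes ranged from 15 to 30 higher (30 without DMSO replicate 1) and from 11 to 25 lower, and input changes from 5 to 16 higher and from 2 to 9 lower. Density changes gave 0 to 1 lower and 0 higher. With library totals 36 members were higher and 10 lower in footprints, a shift shared by all genes. DESeq2 called 3 members lower in input and 2 lower in density change. The replicate block called 20 higher and 20 lower in footprints and 9 lower in input, and a block for each dish called 1 lower in density change. With the dish block 85 members were called for density in DMSO and 96 under trametinib, against 77 and 90 in the main fit. The blocks moved no other of these counts by over 1.5 times, and the numbers were not shown to pair libraries between treatments.

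Other floors change the number of genes themselves. With a floor of 10, 31 members were lower in footprints and 8 in input. With a floor of 50, footprints were higher for 5 and lower for 7, input for 4 and 3, density in DMSO for 7 and 27, and density under trametinib for 7 and 30. Over all 289 ZNF genes tested these counts were 29 and 52, 23 and 13, 26 and 103, and 28 and 131. Shares over all genes are not given for these sets, so the counts cannot be set against a background. Of 738 values of the genes named for footprints, input and density in either treatment, the density changes of ZNF581 and ZNF277 not among them, 728 kept direction and side of the threshold, 10 no longer passed and 0 reversed. The cause of these differences was not tested. Input counts near the floor, as in ZNF581, limit what density changes could be found.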
